A study of Homo sapiens with 6 samples.

Results

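Histone genes were read by 59 probe sets of 22215, which named 50 genes. A probe set was taken where its annotation gave 1 gene symbol and that symbol, in its older or current form, was that of a histone. The members were split by role into 41 probe sets for 40 replication-dependent genes and 18 probe sets for 10 variant genes. A further 29 probe sets listed several genes with a histone among them and were not members. The cells were WI-38, a normal diploid fibroblast strain from human fetal lung, kept at 3% oxygen. The control group held 3 samples of growing, wild-type WI-38 cells. The RASv12 group held 3 samples of WI-38 cells that overexpressed RASv12, a constitutively active RAS GTPase, and that the labels call senescent. The labels give retroviral gene transfer without saying which RAS gene was used, what promoter drove it, how long after infection RNA was taken, or whether control cells received an empty vector.

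Histones package DNA into nucleosomes, each a spool of the core histones H2A, H2B, H3 and H4, and linker histone H1 binds the DNA between spools. Replication-dependent histone genes lie in clusters and are transcribed mainly while DNA is copied, and their mRNA usually ends in a stem-loop bound by SLBP instead of a poly(A) tail, although some of these genes can also make polyadenylated mRNA. Many variant histones come from genes with polyadenylated mRNA that are expressed outside S phase too, although H2AX can also make a stem-loop mRNA. Some variants are testis histones. Some variants replace the canonical histones at chosen places, such as H2A.Z at promoters and macroH2A in silent chromatin.

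In RASv12 cells, 13 of the 41 replication-dependent probe sets were higher and 1 was lower, while of the 18 variant probe sets none was higher and 9 were lower. Over all probe sets, 24.3% were called, 11.3% higher and 13.0% lower. Probe sets with the suffix _x_at or _s_at can read more than 1 transcript. Without them, 4 of 29 replication-dependent probe sets were higher, against 9.15% of all that remained. A probe set was called where the adjusted p of limma's moderated test on log2(intensity + 16) lay under 0.05. The rises were those of H2A, H2B and 1 H4 gene, led by H4C8 and H2BC12. The falls were those of H4C11 among replication-dependent genes and of H2AZ1, H2AZ2, H1-10, H2AJ, 1 H2AX probe set and 1 macroH2A1 probe set. The other H2AX and macroH2A1 probe sets were not called. H2AC8 and H2BC17, called higher, and H2AJ, called lower, lay at or under the low level in all samples. Among variant probe sets the count of 0 higher was also 0 at an unadjusted p under 0.05, against 11 lower. No share over all probe sets was taken at this unadjusted threshold, so neither count has a background. When arrays were instead scaled to their hybridization controls, which moved the median of all probe sets to 0.17, 2 variant probe sets were called higher, both of MACROH2A1, and 9 were still called lower. The median log2 change was 0.04 for replication-dependent members and -0.69 for variant members, against 0.014 for all probe sets. The 3 control and 3 RASv12 intensities did not overlap for 19 of 41 replication-dependent and 12 of 18 variant probe sets, against 38.1% of all probe sets. In a bulk sample, fewer cells with a transcript and less transcript per cell cannot be told apart.

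**Figure D1:**
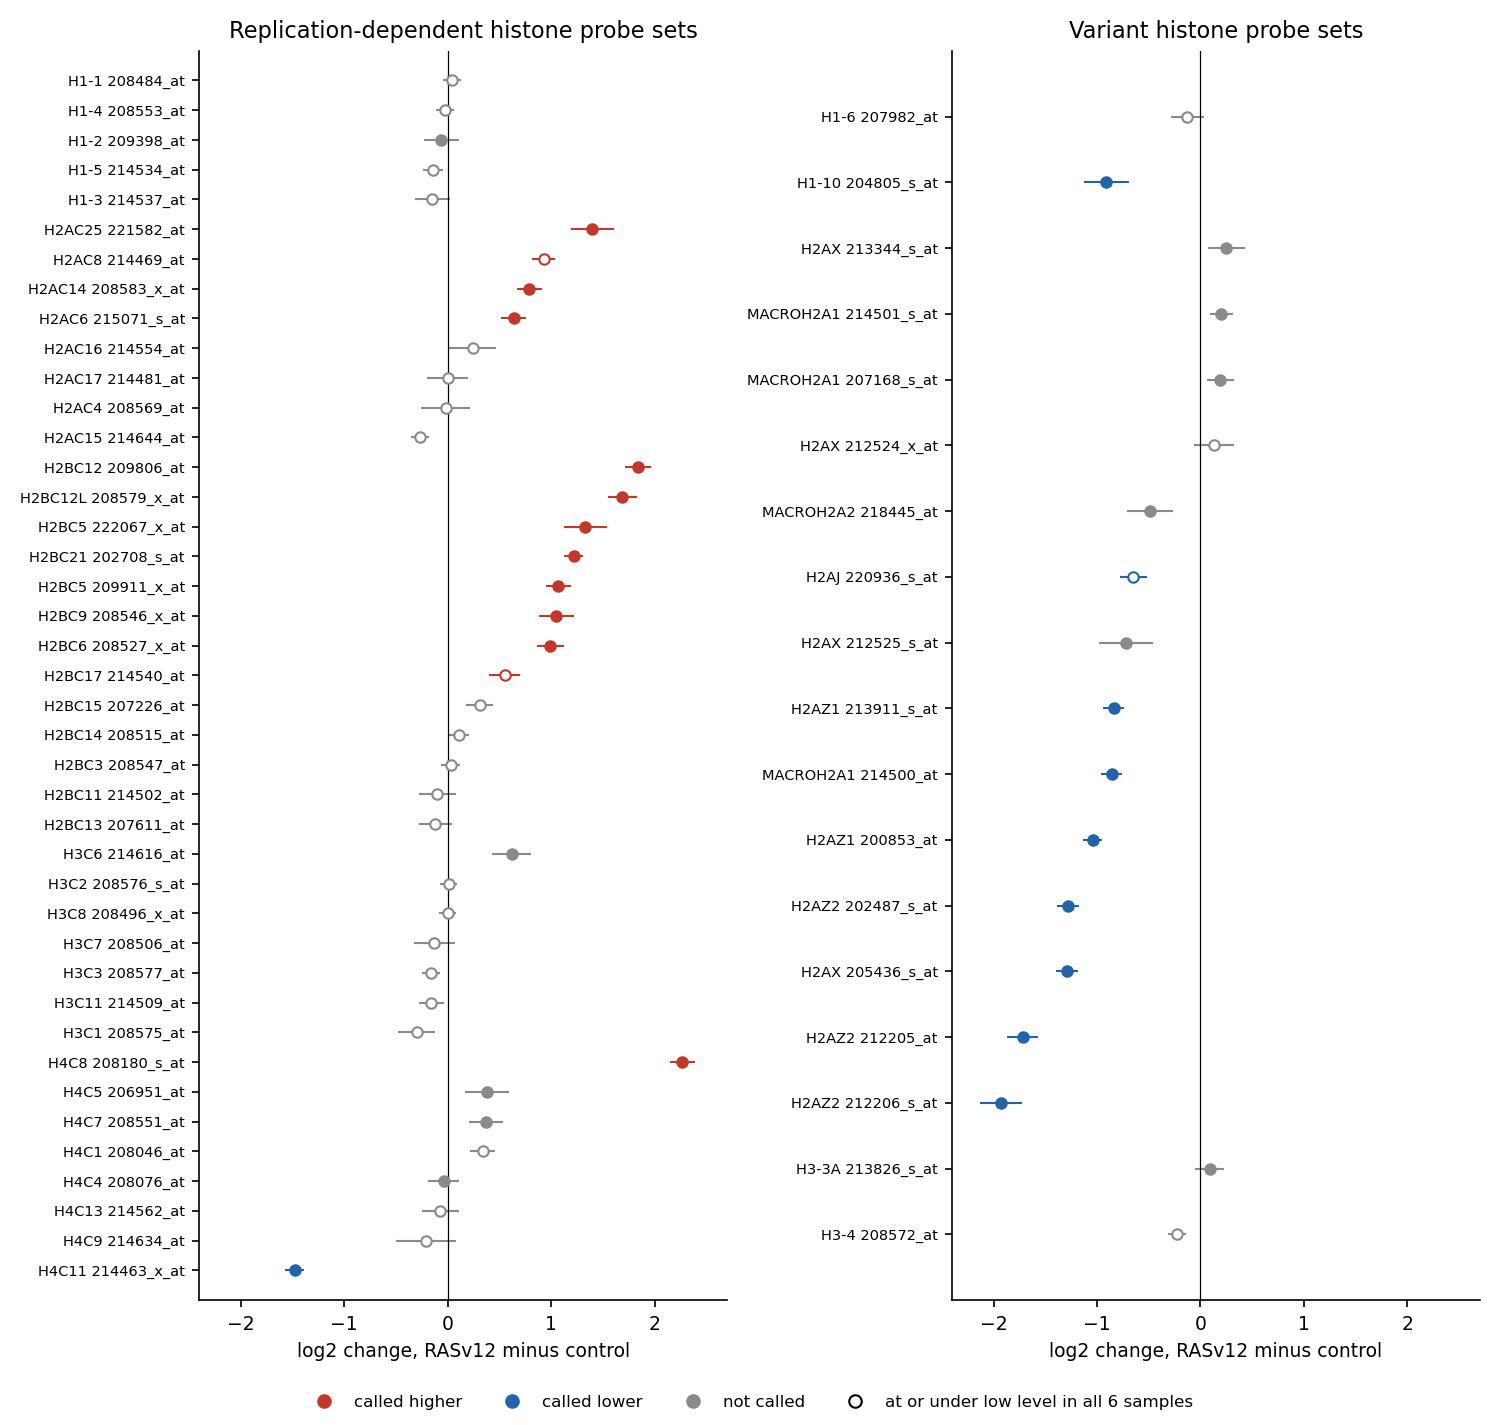
Log2 change (RASv12 minus control, horizontal axis) of each of the 59 histone probe sets, with the standard error of the fit as a bar, grouped by histone type; the left panel holds replication-dependent and the right panel variant members. Filled red points were called higher, blue points lower and grey points not called, and open points lay at or under the low level in all 6 samples. Called rises stand in the left panel, from 0.55 to 2.27, and 9 of the 10 called falls stand in the right panel.

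Each array gave a MAS5 signal for 22283 probe sets, scaled by the authors to the same trimmed mean on every array. Arrays of the same group correlated at 0.975 to 0.987 and arrays of different groups at 0.912 to 0.928. The number of arrays limits the precision. The labels do not state that replicates were grown separately, so the p-values rest on a spread among 3 samples that could be purely technical. HRAS, a RAS family member, was at 215 ± 23.0 in control and 853 ± 123 in RASv12 samples (SD, n = 3), and whether its probe set lies in the introduced sequence was not tested. All 8 fibroblast markers lay above the low level in all 6 samples, but 7 of the 8 were lower in RASv12 samples. Their summed intensity was 18041 to 20676 in control and 7477 to 8833 in RASv12 samples. The low level, 27.98, is the highest intensity on any array among 27 probe sets for bacterial transcripts. Markers of other cell types lay lower, with summed intensities of 148 to 160 in control and 138 to 164 in RASv12 samples for 5 epithelial markers (3 at or under the low level throughout), 102 to 128 and 47.2 to 99.8 for 5 endothelial markers (3 at or under it), and 6.90 to 28.0 and 17.8 to 49.9 for 3 leukocyte markers (2 at or under it).

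Sequence just before the start site is shown for 3 H2B genes that were called higher, 1 H2B gene that was not called, H4C8, and both H2A.Z genes, because histone gene promoters are known for short shared motifs. The windows are the 150 bases before the RefSeq start site (GRCh38.p14), 5′ to 3′ on the strand of the gene, with CCAAT boxes (CCAAT), the octamer (ATTTGCAT) and the TATA box (TATAAA) in capitals on either strand.
H2BC12 (chr6:27146859-27147008, - strand): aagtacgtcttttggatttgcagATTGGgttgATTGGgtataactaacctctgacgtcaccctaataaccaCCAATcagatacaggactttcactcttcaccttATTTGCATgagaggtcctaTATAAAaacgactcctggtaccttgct
H2BC21 (chr1:149886683-149886832, - strand): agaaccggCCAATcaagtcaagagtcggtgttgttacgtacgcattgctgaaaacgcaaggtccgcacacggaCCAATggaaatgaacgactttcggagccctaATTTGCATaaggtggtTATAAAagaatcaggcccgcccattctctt
H2BC5 (chr6:26157971-26158120, + strand): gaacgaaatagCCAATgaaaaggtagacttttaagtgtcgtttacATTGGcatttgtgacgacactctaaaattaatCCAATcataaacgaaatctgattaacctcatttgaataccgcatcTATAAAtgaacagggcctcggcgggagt
H2BC14 (chr6:27814872-27815021, + strand): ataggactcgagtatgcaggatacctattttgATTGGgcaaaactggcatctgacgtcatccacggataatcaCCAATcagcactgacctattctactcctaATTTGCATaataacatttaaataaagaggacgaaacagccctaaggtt
H4C8 (chr6:26285535-26285684, - strand): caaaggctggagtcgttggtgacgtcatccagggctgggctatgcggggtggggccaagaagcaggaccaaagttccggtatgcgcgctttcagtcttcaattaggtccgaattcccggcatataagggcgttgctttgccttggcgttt
H2AZ1 (chr4:99950276-99950425, - strand): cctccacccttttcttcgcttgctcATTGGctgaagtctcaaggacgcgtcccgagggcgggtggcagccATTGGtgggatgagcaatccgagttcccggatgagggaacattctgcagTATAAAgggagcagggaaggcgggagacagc
H2AZ2 (chr7:44848088-44848237, - strand): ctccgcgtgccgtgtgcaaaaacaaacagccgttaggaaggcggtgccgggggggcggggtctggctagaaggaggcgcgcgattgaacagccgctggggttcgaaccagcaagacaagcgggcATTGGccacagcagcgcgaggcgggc

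The octamer, a site read by OCT1 and typical of H2B promoters, was found in 8 of 11 replication-dependent H2B windows, 3 of 8 H2A windows and none of the H1, H3 or H4 windows, against 0.985% of 27303 windows of the same length. It was in 5 of 6 H2B windows of genes called higher and in 3 of 5 of those not called. The probe sets of those 5 uncalled genes, and that of H2BC17 among the called, lay at or under the low level in all 6 samples. H2BC14, 1 of the uncalled genes, carries the octamer as H2BC12 and H2BC21 do, and H2BC5 rose without it in this window. Whether the octamer goes with a change was not tested. CCAAT was found in 32 of 37 replication-dependent and 6 of 10 variant windows, against 24.4% of all windows. TATAAA was in 20 of 37 and 4 of 10, against 7.05%. The H1 box (AAACACA), known from linker histone promoters, was in 4 of 5 replication-dependent H1 windows, that of the variant H1-6 and no H2A, H2B, H3 or H4 window, against 2.77%. E2F letters (TTTCGCGC or TTTGGCGC) were in 4 of 37 replication-dependent windows and no variant window, against 0.678%, and the CHR letters of cell cycle genes (TTTGAA) in 9 of 37 and none of 10, against 7.44%. No 2 capitalised matches overlap in the printed windows, all 6 motifs were searched on both strands, and a match is a description of the letters only.

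H2B genes held most of the rises, with 8 of 13 replication-dependent H2B probe sets called higher and none lower. Over all probe sets, the shares were 11.3% and 13.0%. Of the 13, 6 carry the suffix _x_at or _s_at, whose probes can read more than 1 transcript, and all 6 were called higher. How far they read other H2B genes was not tested. H2BC12, which encodes a canonical H2B, read 279, 321 and 322 in the control samples, in the order of replicates 1 to 3 used throughout, and 1289, 1298 and 941 in the RASv12 samples. All 3 RASv12 samples lay above every control sample, a rise of 1.84 ± 0.13 (SE) on the log2 scale with adjusted p = 1.7e-04. H2BC12L, a copy of that gene outside the main cluster, read 197, 189 and 245 in control and 827, 707 and 630 in RASv12 samples. It rose by 1.69 ± 0.14 (adjusted p = 2.8e-04), again with no overlap, and how far its probes also read H2BC12 was not tested. H2BC21, an H2B gene of another cluster, read 41.1, 39.3 and 45.6 in control and 110, 119 and 117 in RASv12 samples. The groups were apart by more than the spread in either, with a rise of 1.22 ± 0.091 (adjusted p = 1.8e-04).

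H2BC5 was read by a pair of probe sets that both rose. The brighter one read 140, 134 and 169 in control and 338, 296 and 352 in RASv12 samples, a rise of 1.07 ± 0.12 (adjusted p = 0.0013). The other read 85.5, 53.4 and 98.1 in control and 185, 210 and 246 in RASv12 samples, a rise of 1.33 ± 0.21 (adjusted p = 0.0048). Neither overlapped between groups, and control replicate 2 was the lowest on both. H2BC6 read 65.3, 75.3 and 83.4 in control and 166, 176 and 139 in RASv12 samples (0.99 ± 0.13, adjusted p = 0.0024). H2BC9 read 26.4, 43.0 and 47.3 in control and 89.2, 94.4 and 91.6 in RASv12 samples (1.05 ± 0.17, adjusted p = 0.0049), with control replicate 1 under the low level. H2BC17 was called higher at 1.62, 2.90 and 4.46 in control and 9.69, 7.91 and 20.5 in RASv12 samples, all at or under the low level, so no fold is given. The call (adjusted p = 0.039) ended with a pseudocount of 64 (0.072), on values as deposited (0.056), with the replicate block (0.057), without RASv12 replicate 1 (0.077) or 3 (0.080) and without control replicate 1 (0.11), 2 (0.093) or 3 (0.075). The other 5 H2B probe sets, for H2BC3, H2BC11, H2BC13, H2BC14 and H2BC15, lay at or under the low level in every sample, with log2 changes from -0.12 to 0.31.

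Of 8 replication-dependent H2A probe sets, 4 were called higher and none lower, against 11.3% and 13.0% over all probe sets. H2AC25, an H2A gene of a small separate cluster, read 86.8, 46.3 and 71.5 in control and 228, 161 and 207 in RASv12 samples. It rose by 1.40 ± 0.21 (adjusted p = 0.0036), and its lowest RASv12 sample lay above its highest control sample. H2AC6 read 109, 102 and 111 in control and 182, 193 and 146 in RASv12 samples (0.64 ± 0.12, adjusted p = 0.011). H2AC14 read 51.4, 36.4 and 48.6 in control and 79.4, 81.4 and 97.8 in RASv12 samples (0.79 ± 0.12, adjusted p = 0.0046). Both of these had no overlap between groups. H2AC8 was called higher (adjusted p = 0.0012) at 1.23, 1.29 and 1.04 in control and 17.5, 14.1 and 19.9 in RASv12 samples, all under the low level, so no fold is given. The remaining 4, H2AC4, H2AC15, H2AC16 and H2AC17, lay at or under the low level throughout, from -0.27 to 0.24.

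H4 genes moved in opposite directions. H4C8 read 11.9, 7.55 and 13.3 in control and 101, 108 and 127 in RASv12 samples. With each control sample raised to the low level, the RASv12 level exceeded control by at least 3.98-fold (log2 change 2.27 ± 0.12, adjusted p = 4.0e-05). H4C11 read 36.2, 41.3 and 38.9 in control and 3.08, 3.45 and 3.76 in RASv12 samples, at least 1.38-fold lower (adjusted p = 7.8e-05), and was the 1 replication-dependent probe set called lower. The clustered H4 genes encode the same protein from near-identical coding sequences, and both of these probe sets are of the kinds that can read more than 1 transcript, so the source of each signal is uncertain. The other 6 H4 probe sets were not called, with changes from -0.21 to 0.38, and 3 of the 6 lay at or under the low level throughout.

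No replication-dependent H3 or H1 gene was called. Of 7 H3 probe sets, 6 lay at or under the low level in all samples. H3C6 read 34.0, 23.3 and 20.5 in control and 30.4, 48.3 and 63.9 in RASv12 samples, with overlap between groups (0.62 ± 0.19, adjusted p = 0.053). It passed without RASv12 replicate 1 (adjusted p = 0.021), the sample that overlapped the control group, and under 5 other alternatives (0.028 to 0.048). Among 5 H1 probe sets, H1-2 was above the low level, at 49.3, 56.4 and 76.5 in control and 48.7, 45.5 and 67.8 in RASv12 samples (-0.06 ± 0.17, adjusted p = 0.85). At an unadjusted p under 0.05, limma gave none of the 5 H1 probe sets and 1 of the 7 H3 probe sets, that of H3C6. The share of all probe sets at this unadjusted threshold was not taken.

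**Figure D2:**
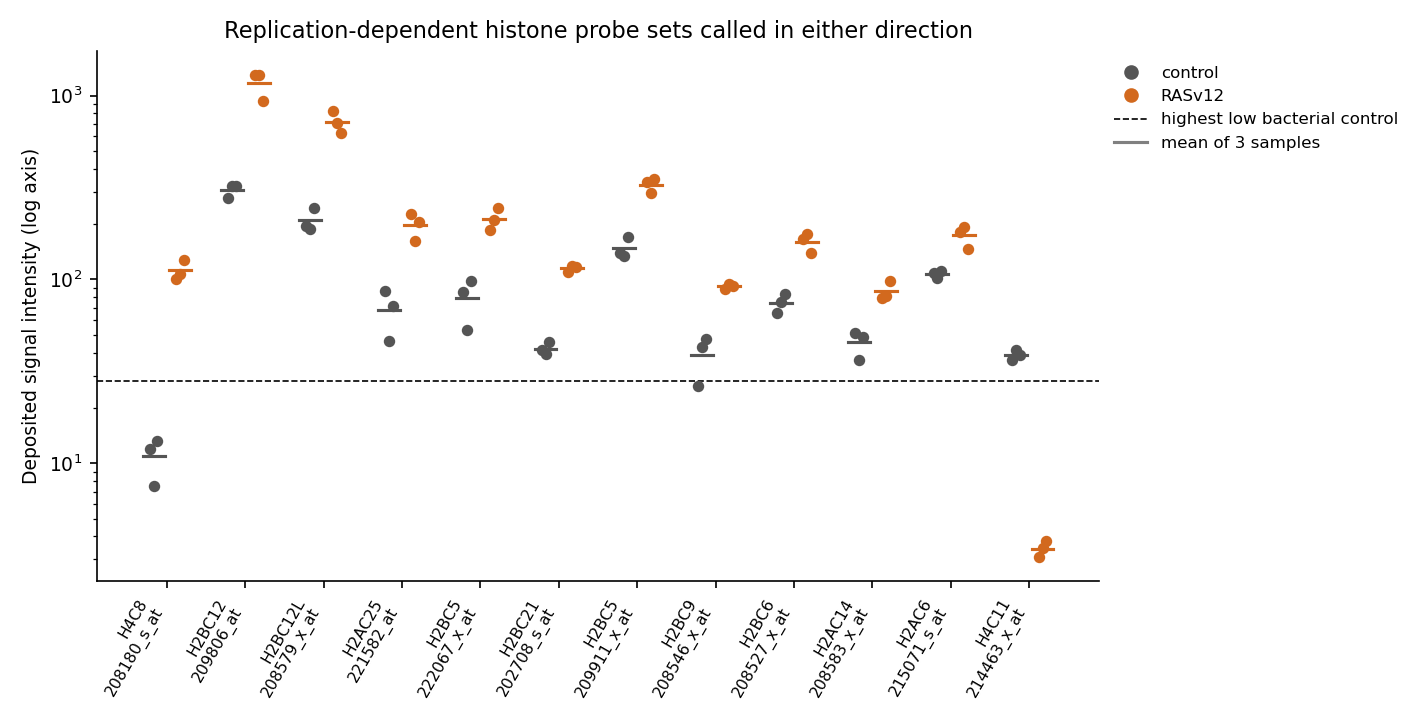
Deposited intensity (vertical log axis) of the 12 replication-dependent probe sets called in either direction with at least 1 group above the low level, by sample; grey points are the 3 control samples, orange points the 3 RASv12 samples, short bars their means and the dashed line the low level of 27.98. The groups do not overlap for any of the 12, H4C8 crosses the low level upward and H4C11 crosses it downward.

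The calls are set here beside the level and uniqueness of the probe sets, and no association was tested. Without the suffix _x_at or _s_at, 22 of 29 replication-dependent probe sets lay at or under the low level throughout. With it, 2 of 12 did, so level and uniqueness cannot be told apart here. Of the 41 replication-dependent probe sets, 24 lay at or under the low level in all 6 samples, against 37.6% of all probe sets, and 2 of these 24 were called, against 411 of the 8353 low probe sets overall (4.92%). The coding sequences of clustered histone genes are alike, and 9 of the 13 probe sets called higher carry the suffix _x_at or _s_at, with which the manufacturer marks probes that can read more than 1 transcript. Without such probe sets, 4 of 29 were called higher and none lower, against 9.15% and 11.5% of all that remained. These 4 were H2BC12, H2AC25, H2AC8 and H2BC17, of which the first pair lay above the low level. How much each copy adds to a signal read under 1 gene name was not tested. Gene spans of over 1000 bases in RefSeq were found for 3 of the 12 genes called higher, H2BC5, H2BC12 and H2BC21, and for 1 of the 27 not called, H3C6. Median spans were 493 and 494 bases.

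Some histone genes stand head to head. Among 13 pairs of RefSeq histone genes on opposite strands with start sites within 1000 bases, 4 had both genes among the members. In 3 of the 4, 1 gene was called higher and the other was not called, namely H2BC9 beside H3C7, H2AC14 beside H2BC14 and H2BC17 beside H2AC17, and neither H2AC15 nor H2BC15 was called. The partner that was not called lay at or under the low level in all 6 samples in each of the 3. H2BC17, although called higher, also lay at or under it in all 6 samples, as did its partner H2AC17.

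All 5 probe sets of the H2A.Z genes were lower in RASv12 cells. H2AZ1, the main gene of the variant H2A.Z, read 1933, 1902 and 2132 in control and 1007, 1038 and 890 in RASv12 samples on its brighter probe set. The groups were far apart relative to their spread, and the fall was 1.04 ± 0.092 (adjusted p = 4.0e-04), or 2.03-fold by the means. Its other probe set fell by 0.84 ± 0.099 (adjusted p = 0.0014), from 1605 ± 108 to 897 ± 36.9 (SD, n = 3). H2AZ2, the second H2A.Z gene, had 3 probe sets and all were lower. The brightest read 681, 762 and 706 in control and 284, 272 and 319 in RASv12 samples (-1.28 ± 0.11, adjusted p = 2.9e-04). The next read 261, 211 and 190 in control and 46.2, 48.1 and 68.1 in RASv12 samples (-1.72 ± 0.15, adjusted p = 4.1e-04). The dimmest read 98.3, 101 and 102 in control and 18.9, 17.2 and 6.88 in RASv12 samples, at least 3.60-fold lower (adjusted p = 7.6e-04). All 3 probe sets of this gene were free of overlap. By the means, the fall was 2.46-fold on the brightest and 4.08-fold on the next.

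H2AX, whose phosphorylated protein marks DNA breaks, read 612, 540 and 518 in control and 239, 214 and 204 in RASv12 samples on its brightest probe set (-1.29 ± 0.11, adjusted p = 3.1e-04). The other 3 H2AX probe sets, with control means of 50.5, 38.2 and 4.53 against 557 on the brightest, were not called, at -0.72 (adjusted p = 0.097), 0.25 (adjusted p = 0.40) and 0.13 (adjusted p = 0.69). The probe set at -0.72 passed without RASv12 replicate 1 (adjusted p = 0.038) and without probe sets low in every sample (0.047). H2AJ, an H2A gene with its own polyadenylated mRNA, was called lower (adjusted p = 0.012) at 13.7, 15.2 and 9.98 in control and 0.74, 5.26 and 2.01 in RASv12 samples, all under the low level, so no fold is given.

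Probe sets of macroH2A1, an H2A with a large extra domain, did not move together. MACROH2A1 read 558, 478 and 468 in control and 517, 613 and 602 in RASv12 samples on its brightest probe set (0.19 ± 0.13, adjusted p = 0.35). A second read 225, 264 and 253 in control and 325, 278 and 275 in RASv12 samples, without overlap but at 0.20 ± 0.11 (adjusted p = 0.23). The third read 94.8, 105 and 93.4 in control and 46.4, 41.4 and 46.2 in RASv12 samples, a fall of 0.86 ± 0.099 (adjusted p = 0.0013) with no overlap. Which transcripts each of these probe sets reads was not tested. MACROH2A2 read 29.5, 29.3 and 57.4 in control and 13.0, 22.1 and 31.4 in RASv12 samples (-0.49 ± 0.22, adjusted p = 0.17), close to the low level.

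Among variants of other types, the linker histone H1-10 was called lower. It read 95.5, 95.5 and 96.9 in control and 63.0, 33.6 and 35.4 in RASv12 samples (-0.91 ± 0.22, adjusted p = 0.024). RASv12 replicate 1 was nearest to the control group, and the call ended with a pseudocount of 1 (adjusted p = 0.054), without RASv12 replicate 2 (0.084) or 3 (0.066) and without control replicate 1 (0.065), 2 (0.067) or 3 (0.076). H3-3A, 1 of the 2 genes of the replacement histone H3.3, read 32.3, 41.5 and 33.8 in control and 34.4, 30.4 and 48.2 in RASv12 samples (0.09 ± 0.14, adjusted p = 0.72). Its groups overlap. The testis histones lay under the low level in all samples and were not called. H1-6 read 4.39, 3.31 and 12.4 in control and 4.29, 4.10 and 5.43 in RASv12 samples (-0.13, adjusted p = 0.63), and H3-4 read 5.27, 2.39 and 4.29 in control and 0.833, 0.809 and 1.81 in RASv12 samples (-0.23 ± 0.089, adjusted p = 0.12).

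**Figure D3:**
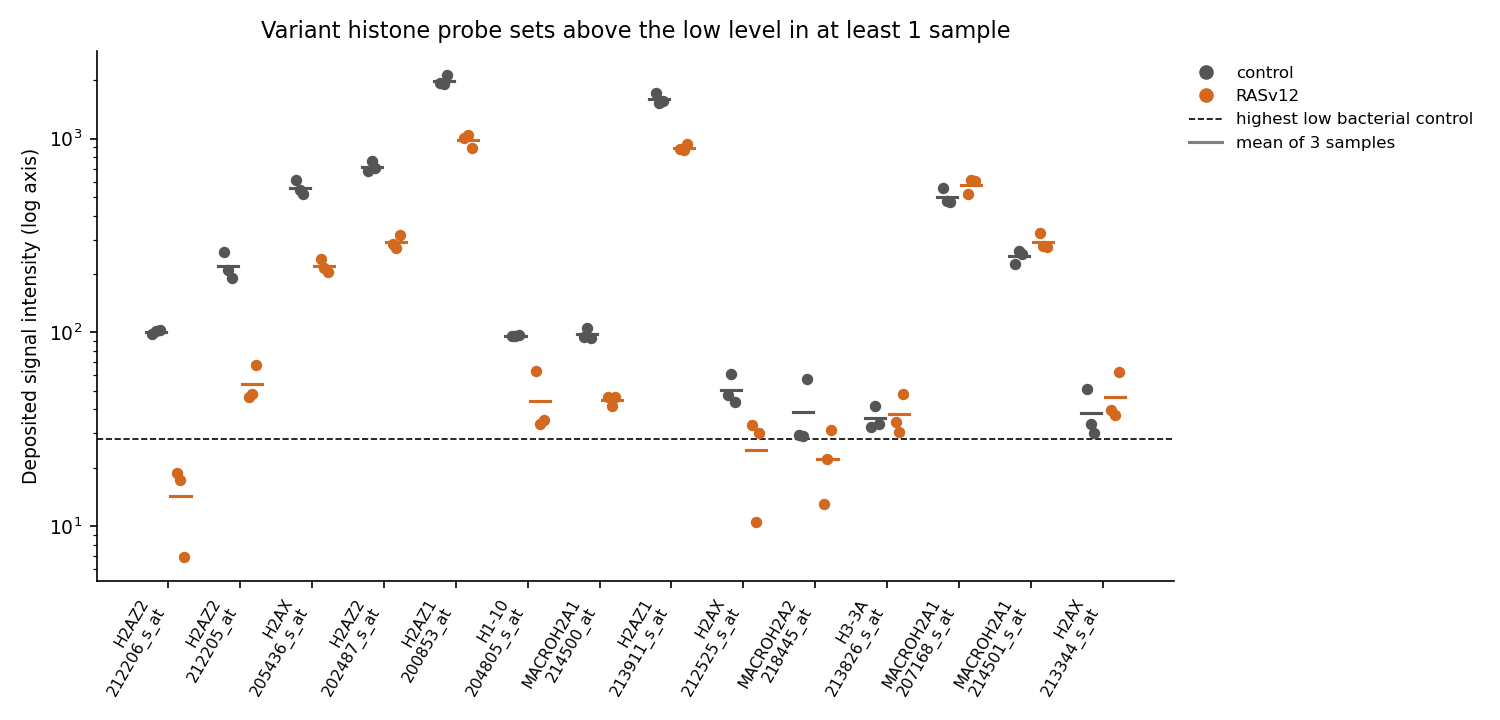
Deposited intensity (vertical log axis) of the 14 variant probe sets above the low level in at least 1 sample, ordered from the largest fall to the largest rise; grey points are the 3 control samples, orange points the 3 RASv12 samples, short bars their means and the dashed line the low level of 27.98. Points of H2AZ1, of H2AZ2 and of the brightest H2AX probe set are apart between groups, and those of H3-3A overlap.

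**Figure D4:**
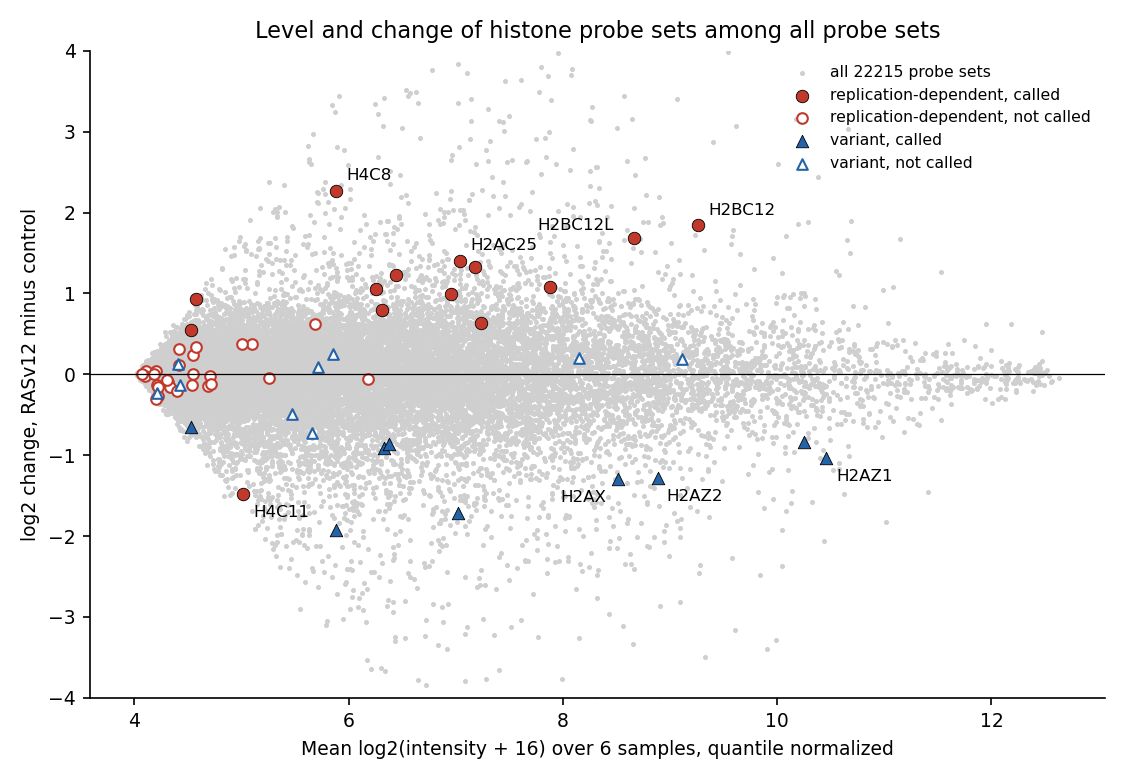
Mean log2(intensity + 16) over the 6 samples (horizontal axis) against log2 change, RASv12 minus control (vertical axis), for all 22215 probe sets in grey, replication-dependent members as red circles and variant members as blue triangles, filled where called; 41 grey points with a change beyond 4 are not drawn. Most open circles lie at the dim end, called circles lie above 0 except H4C11, and called triangles lie below 0.

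The members were set beside 3 lists of genes that make or place histones or copy DNA, each gene by its brightest probe set, against 27.8% of all genes called, 13.0% higher and 14.8% lower. The DNA synthesis list had 15 of 17 lower and none higher, with a median of -1.60. Its 4 largest moderated t values were those of the helicase subunit MCM5 (-2.10 ± 0.088), thymidine kinase TK1 (at least 6.74-fold lower), thymidylate synthase TYMS (-2.81 ± 0.12) and cyclin A2 (CCNA2, at least 7.19-fold lower), each with adjusted p from 1.9e-05 to 2.3e-05. The second, dimmer probe set of TYMS was not called. CCNE2, not called by its brightest probe set, had 1 of its 2 probe sets called lower. In the same samples, 15 of 17 DNA synthesis genes were lower while 13 of 41 replication-dependent histone probe sets were higher. Of those 41, 1 was lower and 27 were not called, against 11.3% higher and 13.0% lower over all probe sets. Among the 13, 9 carry the suffix _x_at or _s_at, and 2 lay at or under the low level in all 6 samples. Counted by the brightest probe set of each gene, 12 of 40 replication-dependent genes were higher. RNA was amplified in 2 rounds, and how RNA without a poly(A) tail was amplified is not given. Which forms of histone mRNA were read was not tested.

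Of 18 genes for transcription and 3′ end processing of histone mRNA, 12 were measured, and 2 were higher, 1 lower and 9 not called (median 0.03). Among those not called by their brightest probe set, ZNF473 had 1 of 2 probe sets called higher. SYMPK had 1 of 2 and NFYB 1 of 3 called lower. CSTF3, a cleavage factor subunit, rose by 0.88 ± 0.12 (adjusted p = 0.0027). CSTF2, its partner, was at 0.43 ± 0.10 (adjusted p = 0.026). NPAT, the coactivator of histone genes in S phase, was at -0.65 ± 0.15 (adjusted p = 0.021), and its 2 dimmer probe sets were not called. Both of these calls were lost with the replicate block (adjusted p = 0.058 for CSTF2 and 0.071 for NPAT). CSTF2 also lost it with a pseudocount of 1 (0.074), on values as deposited (0.054) and without RASv12 replicate 2 (0.088) or 3 (0.072) or control replicate 1 (0.074) or 3 (0.078), and NPAT with hybridization control scaling (0.076) and without RASv12 replicate 2 (0.054) or 3 (0.051) or control replicate 2 (0.070) or 3 (0.069). NFYA, a subunit of the factor that binds CCAAT, was at 0.37 ± 0.11 (adjusted p = 0.053) on its brightest probe set, and 2 of its other 3 probe sets were called higher. The brightest passed without RASv12 replicate 2 (0.038) and under 5 other alternatives (0.012 to 0.048). SLBP, the stem-loop binding protein, named after its values were seen, was at 226 ± 1.32 in control and 224 ± 17.7 in RASv12 samples (SD, n = 3; -0.01 ± 0.097, adjusted p = 0.97).

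Of 20 genes for histone deposition and exchange, 8 were lower, 1 higher and 11 not called (median -0.27). Of the 11 not called by their brightest probe set, CHAF1A had 2 of its 3 probe sets called lower and RBBP4 had 1 of 2. HJURP, the chaperone of the centromeric H3, was at least 5.75-fold lower (adjusted p = 8.8e-06). CHAF1B, a subunit of the complex that places H3 and H4 on new DNA, was at least 1.97-fold lower (adjusted p = 0.0027), and the H3-H4 carrier NASP fell by 0.92 ± 0.15 (adjusted p = 0.0050) on the brighter of its 2 probe sets, the other not being called. DAXX, an H3.3 chaperone, was the member that rose, by 0.83 ± 0.14 (adjusted p = 0.0058) on the brighter of its 2 probe sets, the other not being called.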

How the data were processed

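The authors deposited linear signal intensity, made with MAS5 per the submitters' processing notes, whose version and scaling target are not stated in the sources used. Per the labels' protocols, RNA was amplified in 2 rounds, and how RNA without a poly(A) tail was amplified is not given. The labels give Cy5 for control and Cy3 for RASv12 samples, although the probe sets are those of a single-colour array. How the dyes were used is not known. As labelled, dye and group coincide, so a difference of labelling cannot be told apart from one of RASv12.

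Values were put on a log2(value + 16) scale and quantile normalized. The added 16 understates the change of dim probe sets. Groups of 3 were compared with limma 3.58.1 in R 4.3.3 over 22215 probe sets, without 68 control probe sets, with Benjamini-Hochberg adjustment over all. Errors of log2 changes are standard errors. Where 1 group lay at or under the low level, by its 3 samples or its mean log2 value, an "at least" fold raises dim values to that level. The fit was tested on simulated data with changes added after normalization, so the normalization itself was not tested.

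Older symbols were matched through RefSeq synonyms. Start-site windows matched 47 of 50 genes. All variant genes, and replication-dependent genes called with a group above the low level, have values in every sample. From each further list at most 4 genes with the largest moderated t, and any called against the list's direction, are named. Members and lists were chosen with earlier results of these data known. Alternatives covered pseudocount, normalization, dim filters, replicate block, variance trend, probe set choice and leaving out each sample.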

Additional observations from a re-analysis of the deposited data

How the results depend on the processing

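Over 17 alternatives, 35 called probe sets of histone and listed genes gave 566 values, of which none changed sign and 539 kept their call; the other 27 belonged to H2BC17, H1-10, NPAT and CSTF2. Replication-dependent probe sets called higher were 12 to 14 except without _x_at and _s_at probe sets, where 4 were called. Those called lower were 2 with a pseudocount of 1 or a variance trend and 0 without _x_at and _s_at probe sets. Variant probe sets called lower were 5 with 1 probe set per gene and 3 without _x_at and _s_at probe sets, where fewer were tested. All probe sets called went from 5399 to 3530 and 2445 in these. Without 1 sample, replication-dependent probe sets called higher were 12 to 13, variant probe sets called lower 8 to 10 and all probe sets called 3706 to 4970.

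Scaling arrays to their 18 hybridization controls, whose mean log2 difference between groups was -0.34 (RASv12 minus control), moved the median of all probe sets to 0.17 and the split of calls from 2506 higher and 2893 lower to 4375 and 1675. It left 9 variant probe sets called lower and called 2 higher, both of MACROH2A1 (0.53, adjusted p = 0.028, and 0.55, adjusted p = 0.011). Correlations of same-numbered samples' deviations were -0.23, -0.03 and -0.07, so the replicate numbers were not taken to pair samples. With the replicate block, 12 replication-dependent probe sets were called higher and 1 lower, 9 variant probe sets lower and none higher, and 3852 of all probe sets.

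Only uncalled values changed sign, each with an adjusted p above 0.05. H1-2 was at 0.14 with hybridization control scaling, and from -0.17 to 0.09 without 1 sample. H4C4, at -0.04, was at 0.16 with that scaling and from -0.18 to 0.04 without 1 sample. SLBP was at 0.30 with that scaling, 0.01 with median centring and -0.05 to 0.06 without 1 sample. Without 1 sample, H1-6 went from -0.23 to 0.05, the dimmest H2AX probe set from -0.05 to 0.25 and H3-3A from -0.01 to 0.19. The cause was not tested. H3C6 also passed with 1 probe set per gene (adjusted p = 0.043), median centring (0.040), hybridization control scaling (0.048), and without probe sets low in every sample (0.028) or the dimmest 25% (0.033). NFYA passed with 1 probe set per gene (0.045), a pseudocount of 64 (0.033), hybridization control scaling (0.012), a variance trend (0.048) and without probe sets low in every sample (0.044).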

Other observations

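The 29 probe sets whose annotation lists several genes, at least 1 of them a histone, were called higher in 7 cases and lower in 6. Over all probe sets, 11.3% were called higher and 13.0% lower. Of the 29, 12 lay above the low level in all 6 samples. The largest change was that of a probe set listing a pair of H2A genes, at 227, 266 and 270 in control and 2211, 2270 and 2454 in RASv12 samples (3.07 ± 0.11, adjusted p = 1.2e-05 by limma). A further probe set for the same pair went from 117 ± 4.16 to 766 ± 51.1 (SD, n = 3; 2.57 ± 0.090, adjusted p = 1.1e-05). The groups of both were apart by more than their spread, and both changes exceed that of any member. All 5 probe sets whose listed histones are all H2B genes had a positive change, and 4 were called higher.

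Probe sets whose listed histones are all H4 genes were called lower in 2 of 6 cases, at -0.91 (adjusted p = 0.020) and -1.11 (adjusted p = 0.0071), and none higher. For 8, the listed histones were all H3.3 genes or an H3.3-like pseudogene, and all 8 lay above the low level in every sample. Of these, 3 were called lower, at -0.47, -0.57 and -0.59, and 5 were not called. Whether the probe sets called lower list the same genes as the others was not tested. Group means of these 8 ran from 46.7 to 2466.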
